A study of Mus musculus with 2 samples.

Results

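Translation initiation and elongation factors are the proteins that place the ribosome at a start codon and then carry it along a messenger RNA. The genes described here are the protein-coding mouse genes whose symbols begin with Eif and a digit or with Eef1 or Eef2, without the eIF2 kinases of the Eif2ak series. The rule found 63 genes among 43346 Ensembl gene rows, of which 21474 were protein coding, and it used no measured value. It takes in the inhibitors of eIF4E and the enzymes that modify elongation factors, and it leaves out factors with other symbols, such as the poly(A) binding proteins.

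Initiation begins when eIF2, bound to GTP, brings the initiator tRNA to the small ribosomal subunit together with eIF1, eIF1A, eIF3 and eIF5. The cap binding protein eIF4E, the scaffold eIF4G and the helicase eIF4A recruit that complex to the capped end of the messenger, where it scans for a start codon. The eEF1 complex then delivers aminoacyl-tRNA, eEF2 moves the ribosome by a codon, and eIF5A helps at stretches where peptide bonds form slowly. Erythroblasts make very large amounts of globin before their ribosomes are lost, and a heme-regulated kinase of eIF2 sets their translation by the supply of heme.

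Poly(A)-selected RNA was sequenced as paired ends from erythroblasts, the nucleated precursors of red cells. The cells were Ter119-positive and came from the liver of embryos at day 14.5, with male and female embryos pooled. There was 1 group of 2 libraries, here library 1 and library 2. The labels give no strain, genotype or treatment. They name 1 donor entry and 2 biosamples for the libraries, so part of the spread may be technical. No comparison of conditions was possible: levels are described, and tests set library 1 against library 2 as libraries.

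The libraries held 51190555 expected counts (library 1) and 44256287 (library 2), which are the quantifier's estimates of read pairs per gene. Levels between genes are compared in TPM, a share of all transcripts that corrects for length. Globin genes took 86.0% of TPM in library 1 and 84.4% in library 2, so a TPM of any other gene is a share of a pool that is mostly globin. All 9 erythroid markers stood at 1 TPM or more in both libraries. The summed level of the macrophage list was 10.4 TPM in library 1 and 16.3 TPM in library 2, with 3 of 7 genes at 1 TPM or more. Hepatocyte genes summed to 8.23 TPM in library 1 and 10.2 in library 2 (2 of 5 genes at 1 TPM or more), neutrophil genes to 9.02 and 11.0 TPM (3 of 5), megakaryocyte genes to 11.0 and 14.1 TPM (2 of 5) and endothelial genes to 2.65 and 2.64 TPM (1 of 5). Ly6g and Tek were at 0 TPM in both. The part of these other cells in the levels below was not tested.

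A pyrimidine run that begins with C at the transcription start, the terminal oligopyrimidine motif, is the known mark of messengers for ribosomal proteins and several elongation factors, and it puts their translation under mTOR and LARP1. RefSeq start windows on GRCm38.p6 were matched for 47 of the 63 genes, and each window holds 5 bases before the annotated start and 25 from it on. The run searched for was a C followed by 5 or more letters that are each C or T, on the transcribed strand only. It counted anywhere in the window, so it need not lie at the annotated start. At least 1 window held it in 15 of the 47 genes (31.9%), against 6178 of 27025 genes in all (22.9%) and 34 of 64 cytoplasmic ribosomal protein genes (53.1%). Counted by window, it was present in 16 of 61 windows of factor genes (26.2%), against 20.1% of all 32851 windows. The first 9 windows hold the run, and capitals mark the longest run in each. They belong to Eef1a1, whose motif is well known, to Eif3f, which has the longest run, and to the 7 factor genes with the run and at least 100 counts in each library that differed between the libraries in the test given below. The last 2 have no match and belong to Eif1 and Eif1ax, the highest by mean TPM of the genes with a single window and no run. In Eef2, Eif2b2, Eif3k, Eef1e1 and Eif4g1 the run begins after the annotated start. So does the marked run of Eif3l, though a shorter run in lower case opens that window and spans the start. A match is a description of letters, not a site.

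Eef1a1 (chr9:78481700-78481729, minus strand): CCCTCTTCCCgagggtgggggagaacggta
Eif3f (chr7:108934410-108934439, plus strand): gCTCTCTCTCTTTCTCggcaagatggcttc
Eef2 (chr10:81176626-81176655, plus strand): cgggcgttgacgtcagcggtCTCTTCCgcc
Eif2b2 (chr12:85219476-85219505, plus strand): cggaagttgaCCTCTCTCggcccggaagtg
Eif2s3x (chrX:94212627-94212656, minus strand): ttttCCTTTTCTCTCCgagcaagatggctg
Eif3k (chr7:28981864-28981893, minus strand): gcgctggtgctgaaagcgCCTTTCCCTTTg
Eif3l (chr15:79075218-79075247, plus strand): cttcttccgCTCTCTCCCacgggcttctgg
Eef1e1 (chr13:38659004-38659033, minus strand): agctgtgcaggccccgCCTCCCTaggagct
Eif4g1 (chr16:20672722-20672751, plus strand): gctccgCCCTCTgcgccggtcacgtggggc
Eif1 (chr11:100319944-100319973, plus strand): cacaggggcggctatataagtgaatacagg
Eif1ax (chrX:159372173-159372202, plus strand): agggcggggagaagccccgcccgctgccgc

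Most translation factor genes were present in erythroblast RNA, but at levels that ranged over several orders of magnitude. Of the 63 genes, 45 reached 1 TPM or more in both libraries (71.4%), against 20% of all protein-coding genes. Among cytoplasmic ribosomal protein genes 80 of 84 did so (95.2%), and among mitochondrial ribosomal protein genes 60 of 77 (77.9%). By mean TPM, 4 factor genes lay at 100 or more, 21 from 10 to 100, 20 from 1 to 10 and 15 under 1, and 3 were at 0 in both libraries. The median over factor genes was 6.51 TPM in library 1 and 6.27 TPM in library 2, while the median ribosomal protein gene had a mean of 56.7 TPM and the median protein-coding gene 0.02 TPM. The genes just inside the level of 1 TPM were Eif3m at 1.14 and 1.18 TPM, Eif3l at 1.49 and 4.09 TPM and Eif2s1 at 1.98 and 1.54 TPM in library 1 and library 2. Those just outside were Eif3e at 0.72 TPM in library 1 and 0.88 in library 2, Eif2a at 0.67 and 0.65 TPM and Eif2b5 at 0.56 TPM in both. In bulk RNA, fewer cells that express a gene and less of its RNA per cell cannot be told apart.

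Together the factor genes took 0.144% of TPM in library 1 and 0.160% in library 2. Outside the globins their share was 1.03% in library 1 and 1.02% in library 2, a mean of 1.03 ± 0.00507% (SD, n = 2). Eif5a, Eif1 and Eef2 alone held 43.4% of the summed factor TPM in library 1 and 43.8% in library 2. The 10 highest genes held 72.7% in library 1 and 70.5% in library 2. The plot of levels by role shows the range within each step.

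**Figure D1:**
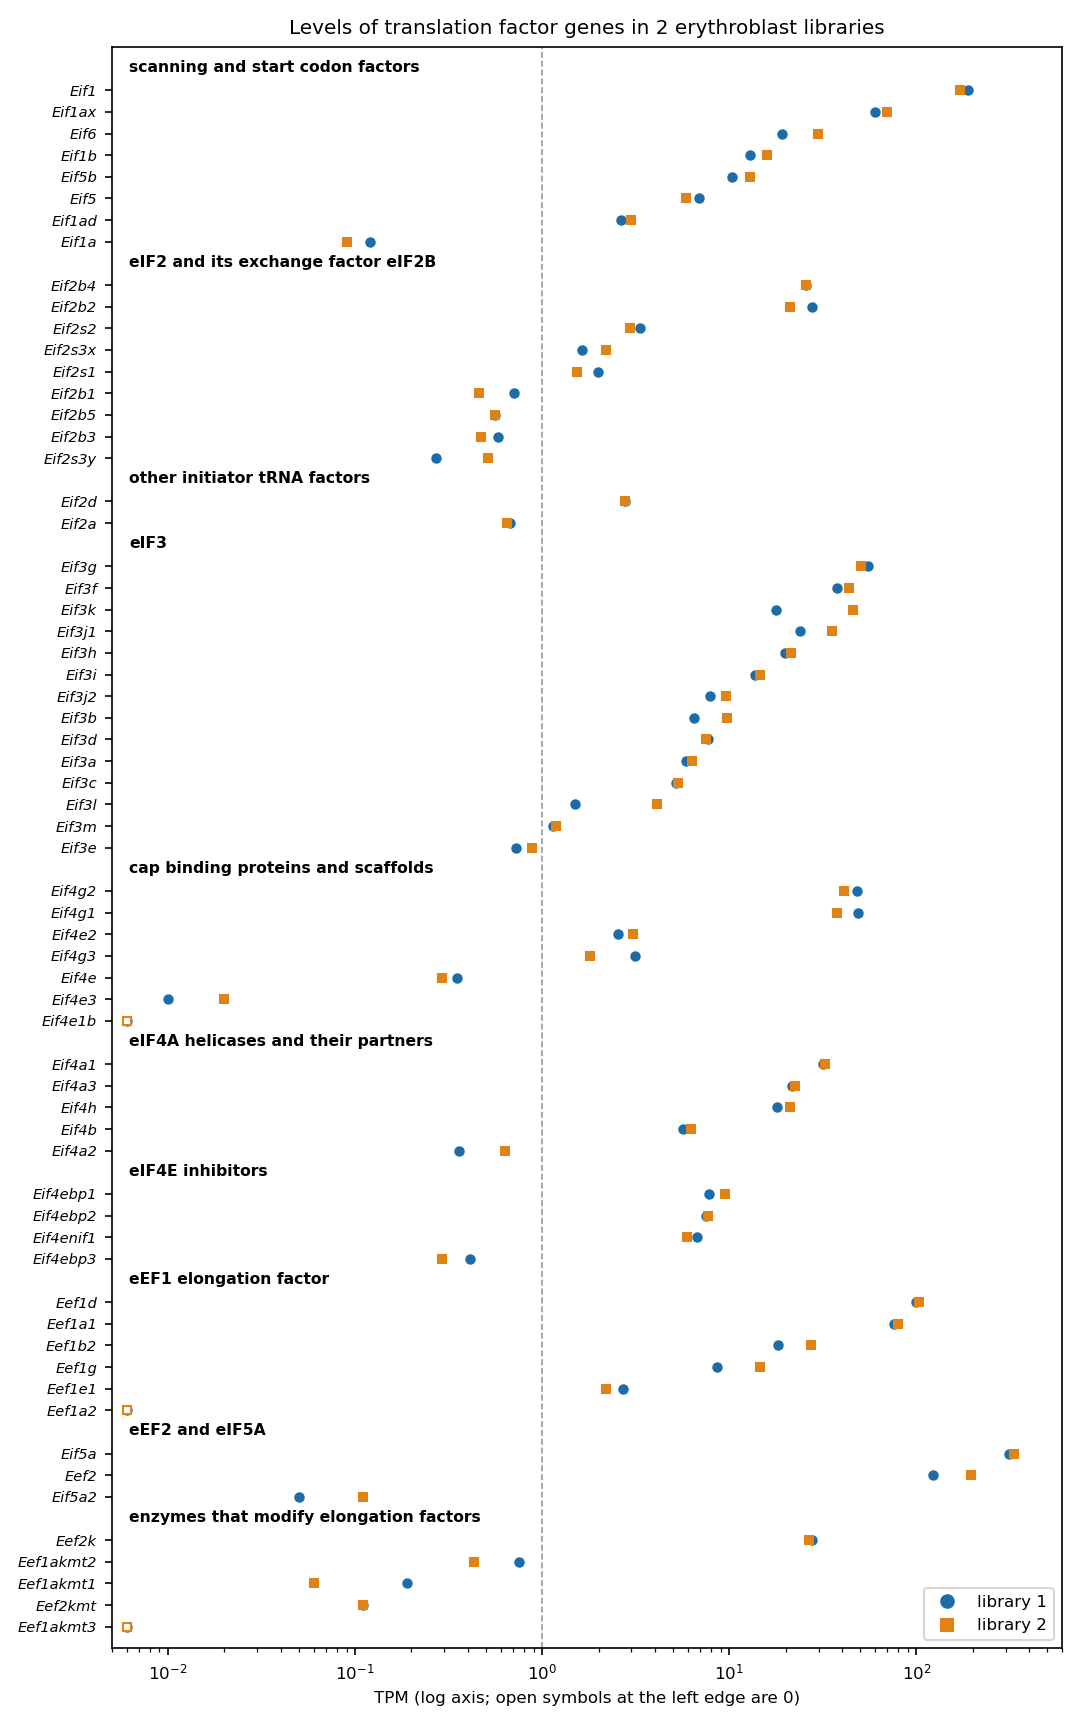
TPM of the 63 translation factor genes in library 1 (circles) and library 2 (squares), grouped by role and ordered by mean level, on a log axis with a dashed line at 1 TPM. Eif5a stands highest at 313 and 332 TPM, and Eif4e1b, Eef1a2 and Eef1akmt3 are at 0 in both libraries.

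Among the scanning and start codon factors, Eif1 was far above the rest. Eif1, the gatekeeper that keeps the scanning complex from accepting a wrong start codon, measured 189 TPM in library 1 and 171 TPM in library 2. Its partner Eif1ax, which encodes the X-linked form of eIF1A, measured 59.95 TPM in library 1 and 69.3 in library 2. Eif6, which keeps the large ribosomal subunit from joining too early, measured 19.2 TPM in library 1 and 29.8 TPM in library 2. A transcript of 373 bases, annotated as coding, took 66.35% of the TPM of Eif6 in library 1 and 69.71% in library 2. The subunit-joining GTPase gene Eif5b had 10.3 TPM in library 1 and 12.8 in library 2. Eif5, which activates the GTPase of eIF2 at the start codon, had 6.86 TPM in library 1 and 5.86 in library 2. Eif1a, the autosomal copy of eIF1A, was the lowest at 0.12 TPM in library 1 and 0.09 in library 2. Of these 8 genes 7 reached 1 TPM in both libraries, and together they averaged 305 ± 4.80 TPM (SD, n = 2).

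The level of Eif1ax rests on a transcript that is not annotated as coding. A 416-base retained-intron transcript took 99.4% of its TPM in library 1 and 99.8% in library 2. Of the counts of the gene it took 89.7% in library 1 and 96.6% in library 2. The full-length coding transcript of 5172 bases had 0.37 TPM in library 1 and 0.14 in library 2.

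The eIF2 complex, which carries the initiator tRNA, was low and even, while the subunits of its exchange factor eIF2B were not. Eif2s2, the beta subunit, had 3.32 TPM in library 1 and 2.96 TPM in library 2. The X-linked gamma subunit gene Eif2s3x had 1.64 TPM in library 1 and 2.19 in library 2. Eif2s1, the alpha subunit that the eIF2 kinases phosphorylate, had 1.98 TPM in library 1 and 1.54 in library 2. The highest of these stood 1.78-fold above the lowest by mean TPM. The order of the lower pair was not the same in both libraries: Eif2s1 was above Eif2s3x in library 1 and below it in library 2. The Y-linked copy Eif2s3y had 0.27 TPM in library 1 and 0.51 in library 2 from 36 and 23 counts, in libraries made from embryos of both sexes.

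In eIF2B, which reloads eIF2 with GTP and is blocked by phosphorylated eIF2, Eif2b4 (delta subunit) had 25.7 TPM in library 1 and 25.6 TPM in library 2. Eif2b2 (beta subunit) had 27.6 TPM in library 1 and 21.1 in library 2. The 3 other subunits were under 1 TPM: Eif2b1 at 0.71 and 0.46, Eif2b5, the catalytic epsilon subunit, at 0.56 in both, and Eif2b3 at 0.58 TPM in library 1 and 0.47 in library 2. The highest mean was 48.8-fold above the lowest. This gap depends on which transcripts are counted. In Eif2b4 a 512-base transcript with no entry in the newer annotation took 77.9% of TPM in library 1 and 68.8% in library 2, and in Eif2b2 a 338-base retained-intron transcript took 78.2% and 54.3%. With coding transcripts alone, Eif2b2 averaged 4.72 and Eif2b4 2.37 TPM, and the gap between the highest and the lowest subunit was 11.9-fold.

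Of the other initiator tRNA factors, Eif2d had 2.76 TPM in both libraries, and Eif2a had 0.67 TPM in library 1 and 0.65 TPM in library 2. The exons of Eif2a overlap the more abundant Serp1 on the opposite strand, and how the counting used strand is not stated in the labels or files.

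The eIF3 complex is the largest initiation factor and bridges the ribosome and eIF4G. Its 12 subunit genes reached from 0.80 to 52.6 TPM by mean. Eif3g, an RNA binding subunit of the module formed with eIF3b and eIF3i, was highest, with 54.9 TPM in library 1 and 50.4 TPM in library 2. Eif3i had 13.8 TPM in library 1 and 14.7 in library 2, and Eif3b, the scaffold of that module, had 6.51 and 9.74 TPM. In the octamer that forms the core, Eif3f had 37.7 and 43.8 TPM, Eif3k 17.9 and 46.0 TPM and Eif3h 19.9 and 21.5 TPM in library 1 and library 2. Eif3a, the largest subunit, had 5.87 TPM in library 1 and 6.35 in library 2 and its partner Eif3c had 5.18 and 5.32 TPM. At the low end of the octamer, Eif3l had 1.49 TPM in library 1 and 4.09 in library 2, Eif3m 1.14 and 1.18 TPM and Eif3e 0.72 and 0.88 TPM. The peripheral cap-binding subunit gene Eif3d had 7.65 TPM in library 1 and 7.52 in library 2.

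The highest eIF3 mean was 65.8-fold above the lowest, 76.2-fold in library 1 and 57.2-fold in library 2. Both ends of that range, Eif3g and Eif3e, have 1 annotated transcript, so the value was the same with coding transcripts alone. Across the 12 genes the level moved with GC content, with a Spearman correlation of 0.671 over genes whose transcripts ran from 38.3% to 57.2% GC. These points share both libraries and genes are not replicates. The part of GC content in the spread was not tested. The loosely attached eIF3j is encoded by Eif3j1 (23.8 TPM in library 1 and 35.5 in library 2) and the intronless Eif3j2 (7.85 and 9.58 TPM), and 94.0% of the 31-base words of Eif3j2 also occur in Eif3j1, so the division of their reads is uncertain.

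**Figure D2:**
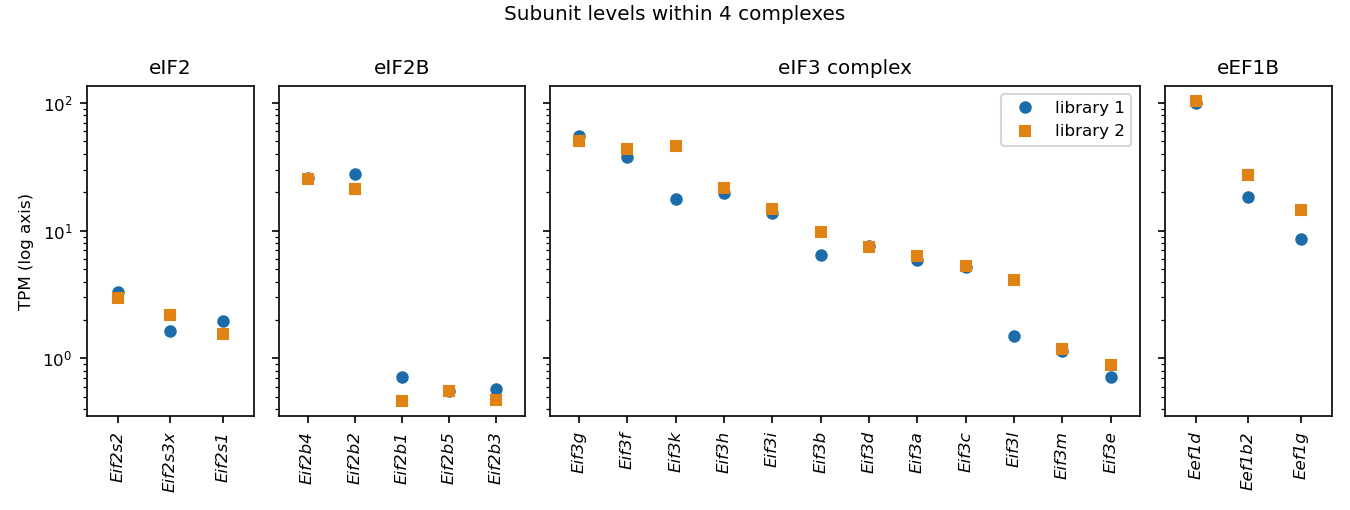
TPM of each subunit gene in library 1 (circles) and library 2 (squares) for eIF2, eIF2B, the eIF3 complex and eEF1B, on a log axis shared by the panels. The subunits of eIF2 lie close together, 2 of 5 eIF2B genes lie above the rest of that complex, and eIF3 runs from Eif3g (54.9 and 50.4 TPM) down to Eif3e (0.72 and 0.88 TPM).

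At the cap, the RNA for eIF4E was scarce beside that for the eIF4G family and for the eIF4E inhibitors. Eif4e, the main cap binding protein, had 0.35 TPM in library 1 and 0.29 TPM in library 2. Those levels rest on 95 counts (exact 95% Poisson interval 76.9 to 116, counting error only) and 60 counts (45.8 to 77.2). Eif4e2, a cap binding protein best known as a repressor of translation, had 2.53 TPM in library 1 and 3.04 in library 2, and Eif4e3 had 0.01 and 0.02 TPM. The oocyte-type copy Eif4e1b had no counts. The scaffold genes were far higher: Eif4g1 had 48.5 TPM in library 1 and 37.4 TPM in library 2, and Eif4g2, whose product lacks the eIF4E binding site, had 48.0 and 40.9 TPM. Eif4g3 had 3.14 TPM in library 1 and 1.79 in library 2. The summed eIF4G genes, Eif4g2 included, stood 285-fold above Eif4e in library 1 and 276-fold in library 2. With coding transcripts alone these ratios were 155-fold in library 1 and 159-fold in library 2. Eif4g2 held 79.2% of that coding sum by mean, so the ratios are not those of scaffolds that bind eIF4E. They also rest largely on a 742-base coding transcript of Eif4g2, with 40.77 TPM in library 1 and 34.85 in library 2. The coding transcript of 5177 bases of Eif4g2 had 1.94 TPM in library 1 and 1.59 in library 2.

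The 4E-BPs, which bind eIF4E and keep it from eIF4G until mTOR phosphorylates them, also exceeded Eif4e. Eif4ebp1 had 7.81 TPM in library 1 and 9.46 TPM in library 2, Eif4ebp2 had 7.53 and 7.66 TPM, and Eif4ebp3 had 0.41 and 0.29 TPM. Their sum was 45-fold above Eif4e in library 1 and 60-fold in library 2. Eif4enif1, the transporter that brings eIF4E into the nucleus and into processing bodies, had 6.73 TPM in library 1 and 5.91 in library 2. None of the 4 inhibitor genes was called in the comparison of the libraries below, where 44.2% of all genes tested were. That comparison was an exact binomial test with Benjamini-Hochberg adjustment. Unadjusted, Eif4ebp2 had a p of 0.0385 in that exact test. With ratios corrected for GC content Eif4ebp2 was called, at a log2 ratio of 0.26 in place of 0.13. These are ratios of RNA, and protein was not measured.

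Of the helicases, Eif4a1 had 31.9 TPM in library 1 and 32.5 TPM in library 2. Eif4a3, which belongs to the exon junction complex and not to cap recognition, had 21.6 TPM in library 1 and 22.5 in library 2. The helicase partner Eif4h had 17.9 TPM in library 1 and 21.03 in library 2, and Eif4b, a partner that S6 kinase phosphorylates, had 5.67 and 6.27 TPM. Eif4a2 was the lowest at 0.36 TPM in library 1 and 0.63 in library 2. A processed transcript of 855 bases took 53.4% of the TPM of Eif4a1 in library 1 and 40.7% in library 2, and its coding transcripts had 6.25 and 6.22 TPM.

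By role, the largest summed level was that of eEF2 and eIF5A, 482 ± 65.03 TPM (SD, n = 2), followed by the scanning factors, by eIF3 with 230 ± 36.9 TPM and by eEF1 with 216 ± 16.2 TPM. Eif5a (chr11:69916714-69921958, minus strand) had 313 TPM in library 1 and 332 TPM in library 2, and it ranked 73 among protein-coding genes by mean TPM. It encodes a form of eIF5A, which carries the modified residue hypusine. Eef2 (chr10:81176631-81182498, plus strand), the translocase, had 123 TPM in library 1 and 197 TPM in library 2, a mean of 160 ± 51.9 TPM (SD, n = 2). Its spread was the widest of the 4 most abundant genes. Eef1d, the delta subunit of the eEF1B exchange complex, had 99.4 TPM in library 1 and 104 in library 2. Eef1a1 (chr9:78478449-78489151, minus strand), which carries aminoacyl-tRNA and is among the most abundant messengers of many tissues, had 75.6 TPM in library 1 and 79.5 in library 2. Eef1a1 therefore stood at 0.612 of Eef2 in library 1 and 0.404 in library 2. With coding transcripts alone it stood at 0.347 in library 1 and 0.224 in library 2. A processed transcript of 505 bases took 34.6% of the TPM of Eef1a1 in library 1 and 33.9% in library 2.

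The other eEF1B subunits were lower than Eef1d. Eef1b2, the alpha subunit with exchange activity, had 18.2 TPM in library 1 and 27.4 TPM in library 2. Eef1g, the gamma subunit that anchors the complex, had 8.60 TPM in library 1 and 14.6 in library 2. Eef1e1, a scaffold of the tRNA synthetase complex, had 2.69 TPM in library 1 and 2.18 in library 2. Within eEF1B the highest mean was 8.75-fold above the lowest, and with coding transcripts alone it was 45.1-fold, where the coding share of the TPM of Eef1b2 was 13.1% in library 1 and 6.98% in library 2. Eef1d shares exonic positions with Naprt on the same strand, and its level may hold reads of that gene.

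Of the enzymes that modify elongation factors, Eef2k alone reached 1 TPM. It encodes the kinase that inactivates eEF2, and it had 27.5 TPM in library 1 and 26.7 TPM in library 2. The share of an 800-base retained-intron transcript in that TPM was 80.9% in library 1 and 80.4% in library 2, and coding transcripts had 4.34 and 5.16 TPM. The lysine methyltransferase genes Eef1akmt2 (0.75 TPM in library 1 and 0.43 in library 2), Eef1akmt1 (0.19 and 0.06 TPM) and Eef2kmt (0.11 TPM in both) were low, and Eef1akmt3 was at 0.

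Where a factor is encoded by several copies, the RNA often came mostly from 1 of them. In 5 of 10 families a copy held 90% or more of the family's TPM in both libraries. Eef1a1 held all of it: no count fell on Eef1a2, the copy of muscle and neurons. Read as at most 3 counts in each library (counting error only), the absence of Eef1a2 puts Eef1a1 at least 4788-fold higher per length in library 1 and at least 3934-fold higher in library 2. By TPM, Eif5a stood 6261-fold above Eif5a2 in library 1 and 3014-fold above it in library 2. Eif4a1 held 98.5 ± 0.555% of the TPM of its pair with Eif4a2, Eif1ax 99.8 ± 0.0495% of its pair with Eif1a, and Eif1 92.5 ± 1.51% of its pair with Eif1b (SD, n = 2 each). By coding transcripts alone the share of Eif1ax was 67.4 ± 9.28%.

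The other families were mixed. Eif4e2 held 87.5% of the TPM of the eIF4E copies in library 1 and 90.7% in library 2, and Eif4e held 12.1% and 8.66%. Eif2s3x held 83.5 ± 3.36% of TPM against 16.5 ± 3.36% for Eif2s3y, but it held 94.8 ± 1.72% of expected counts and 93.7 ± 4.79% of TPM by coding transcripts alone, over 90% in both libraries by either measure. Eif3j1 held 77.0 ± 2.54% of TPM, but 27.8 ± 3.93% when only coding transcripts were counted, and a processed transcript of 594 bases took 85.5% of its TPM in library 1 and 91.0% in library 2. Eif4g2 and Eif4g1 had nearly equal shares of TPM, 49.6 ± 2.01% and 47.7 ± 1.36%. By expected counts Eif4g1 held 69.4 ± 0.120%, and by coding transcripts Eif4g2 held 79.2 ± 0.322%, so their order depends on the measure. The same holds for Eif4ebp1, with 52.0 ± 3.36% of TPM and 36.5 ± 2.91% of counts.

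**Figure D3:**
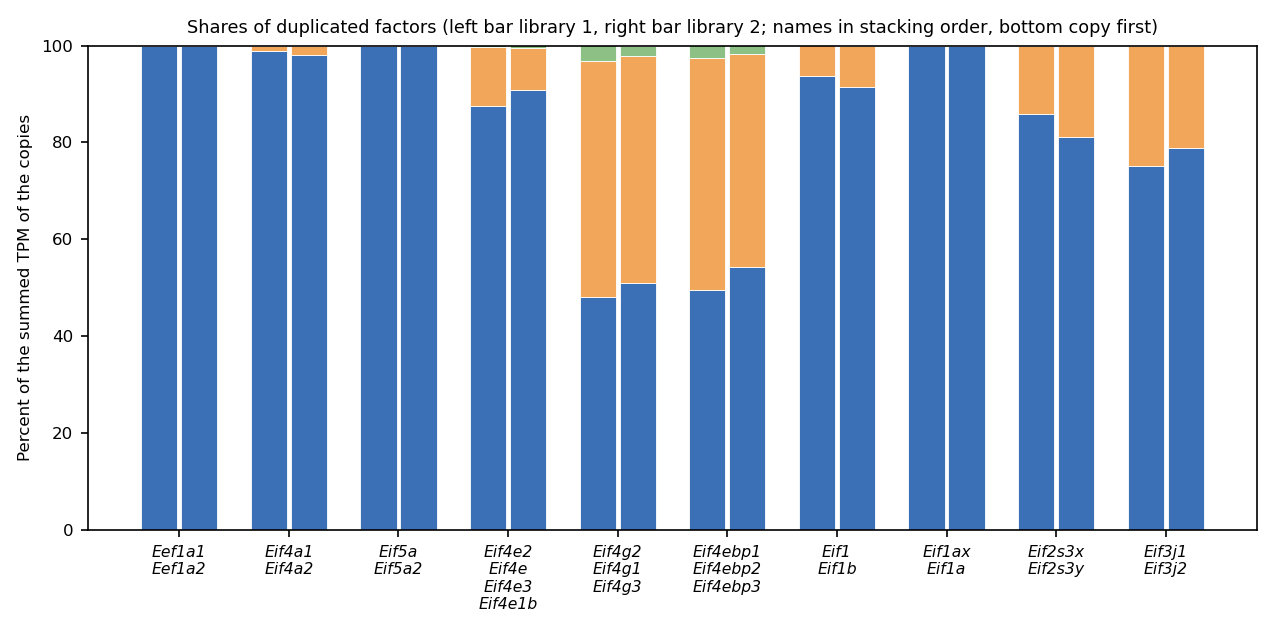
Percent of the summed TPM of each family's copies in library 1 (left bar) and library 2 (right bar), stacked with the copy named first at the bottom. Eef1a1, Eif4a1, Eif5a, Eif1 and Eif1ax fill over 90% of their bars, while Eif4g2 with Eif4g1 and Eif4ebp1 with Eif4ebp2 divide theirs.

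The transcript make-up of the genes was described for the 52 genes counted at least 50 times in each library. Of these, 19 have 1 annotated transcript and 33 have several. In 26 of the 33 the same transcript led by TPM in both libraries, and in 29 the same led by counts. The leader held 90% or more of TPM in both libraries in 6 genes. It was annotated as protein coding in 22 genes, as another class in 10, and it had no entry in the newer annotation in 1, Eif2b4. A short transcript holds a larger share of TPM than of counts. For Eif4g1 a 626-base processed transcript took 42.8% of TPM in library 1 and 35.3% in library 2, but 10.7% and 7.93% of counts. In Eif5b, by contrast, the leader was a long retained-intron transcript of 5788 bases, whose share of TPM was 82.6% in library 1 and 86.1% in library 2. Eif4g2 was led by a coding transcript of 742 bases with 85.0% in library 1 and 85.2% in library 2. Its coding transcript of 5177 bases had 4.05% in library 1 and 3.89% in library 2. Over all 63 genes the median level was 3.13 TPM with coding transcripts alone.

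GC content moved with level across the factor genes as it did across all genes. The Spearman correlation between GC content and log2(TPM + 1) was 0.367 over the 63 genes and 0.299 over 21474 protein-coding genes. Of factor genes below 45% GC 9 of 16 reached 1 TPM in both libraries, from 45% to 50% 6 of 10, from 50% to 55% 22 of 27, and at 55% or more 8 of 10. Among protein-coding genes the shares in the same order were 7.29%, 16.6%, 25.6% and 32.0%. Median levels of the factor genes in the 4 classes were 1.46, 4.38, 7.60 and 27.6 TPM. Eif4e (44.5% GC), Eif3e (38.3%) and Eif2s1 (42.4%) lie in the lowest class, yet so does Eif4g2 (43.3%) at a mean of 44.4 TPM. Most of that TPM lay in the 742-base transcript of Eif4g2. Length had a correlation of -0.32 over the factor genes and 0.090 over protein-coding genes, where it was -0.076 by posterior mean TPM. These correlations are descriptions across genes that share 2 libraries.

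**Figure D4:**
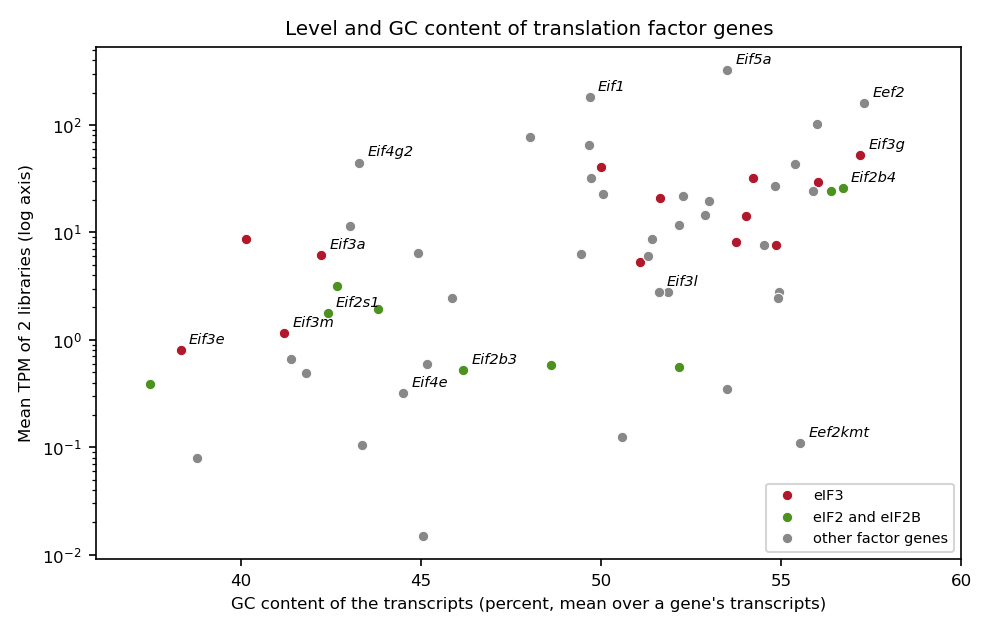
Mean TPM of the factor genes with a value above 0 (log axis) against the mean GC content of their transcripts in percent, with eIF3 and the eIF2 and eIF2B genes coloured. Levels rise with GC content, from a median of 1.46 TPM below 45% to 27.6 TPM at 55% or more, with exceptions such as Eif4g2.

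The 2 libraries were then set against each other, gene by gene, with a two-sided exact binomial test on rounded counts, scaled by edgeR's trimmed mean of M values, and Benjamini-Hochberg adjustment over 10955 genes. A ratio is library 1 over library 2. Such a test covers counting error only and compares libraries, not conditions. At an adjusted p under 0.05 it called 29 of the 59 factor genes tested (49.2%), against 44.2% of all genes tested. Of these, 16 were higher in library 1 (22.1% of all genes were) and 13 lower (22%). Only Eif3l, Eif3k and Eef1akmt2 were called and also 2-fold apart, as were 12.5% of all genes tested.

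Most translation factors with many counts lay within 1.5-fold between the libraries, though the share called was about that of all genes. Of those counted at least 100 times in each library, 26 of 45 factor genes were called (57.8%), against 58% of 5256 genes. The median absolute log2 ratio of the 45 factor genes was 0.15, against 0.24 over those 5256 genes, and 95.6% lay within 1.5-fold, against 86.8%. Of 49 mitochondrial ribosomal protein genes 91.8% lay within 1.5-fold, and of 77 cytoplasmic ones 68.8%. These sets were not matched for level. The median log2 ratio was 0.030 for the factors and -0.16 for 77 cytoplasmic ribosomal protein genes, of which 43 were lower and 21 higher in library 1. All of these counts compare 1 library with 1 library.

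The exceptions were Eif3l and Eif3k, whose products are neighbours at the edge of the eIF3 octamer. Eif3l (chr15:79075179-79094405, plus strand) had 256 counts in library 1 and 548 in library 2, 5.03 and 12.3 scaled CPM (counts over scaled library size). Its ratio was 0.409 (95% interval 0.351 to 0.476), a log2 ratio of -1.29 with an adjusted p of 5.91e-33 in the exact binomial test. Eif3k (chr7:28971372-28981864, minus strand) had 1102 counts in library 1 and 2232 in library 2, 21.7 and 50.1 scaled CPM. Its ratio was 0.433 (0.402 to 0.465), a log2 ratio of -1.21 with an adjusted p of 1.47e-120 in the same exact test. Both have 1 annotated transcript, and both hold the pyrimidine run printed above. They were the 2 factor genes with at least 100 counts in each library that lay outside 1.5-fold. The rest of eIF3 was mixed: Eif3b was lower in library 1 at a ratio of 0.75, Eif3g, Eif3d and Eif3c were higher at 1.22, 1.14 and 1.10, and Eif3f, Eif3h, Eif3i, Eif3a, Eif3m and Eif3e were not called, with ratios from 0.923 to 1.14. Eif3j2 was lower at 0.920. Several of these smaller differences depend on the scaling. Eif3c lost its call with total counts, with a minimum of 1 count and with GC correction, and Eif3j2 lost its call with DESeq2 size factors and with a minimum of 1 count. Eif3h and Eif3i were called higher with GC correction, Eif3a was called lower with it, and Eif3f was called lower with total counts.

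Markers of cell types also differed between the libraries, where 22.1% of all genes tested were higher in library 1 and 22% lower. Of the 9 erythroid markers 4 were higher and 5 lower, with log2 ratios from -0.61 for Alas2 and -0.52 for Epor to 0.40 for Tal1. Of the 7 macrophage genes 0 were higher and 3 lower, of the 5 hepatocyte genes 1 and 2, and of the 5 megakaryocyte genes 1 and 1, the lower being Vwf at -0.81. Of 3 neutrophil genes tested 0 were higher and 1 lower, and of 3 endothelial genes 1 and 0. Their part in the differences of the factor genes was not tested.

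Among the other genes that were lower in library 1, Eef2 had the most counts. It measured 702 scaled CPM in library 1 and 997 in library 2, a ratio of 0.704 (0.694 to 0.714). Eef1g had a ratio of 0.683 (0.636 to 0.734), and the minor copies Eif4a2 and Eif5a2 had ratios of 0.612 (0.439 to 0.850) and 0.501 (0.290 to 0.846). Their adjusted p in the exact binomial test was 2.76e-24 for Eef1g, 0.00855 for Eif4a2 and 0.0218 for Eif5a2. On the higher side, Eef1akmt2 had 48 counts in library 1 and 19 in library 2, a ratio of 2.21 (1.28 to 3.99). Eif2s1 had a ratio of 1.45 (1.27 to 1.65), Eif5 1.43 (1.33 to 1.53), Eef1e1 1.38 (1.12 to 1.70) and Eif4g2 1.32 (1.26 to 1.39). Eef1e1 was no longer called when the ratios were corrected for GC content, at a log2 ratio of 0.30 in place of 0.46. In 4 called genes, Eif5a, Eif4a1, Eif3c and Eif2b2, the ratio of TPM had the other direction, so their direction depends on the scale. For Eif5a the ratio was 1.05 by scaled counts and 0.944 by TPM.

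**Figure D5:**
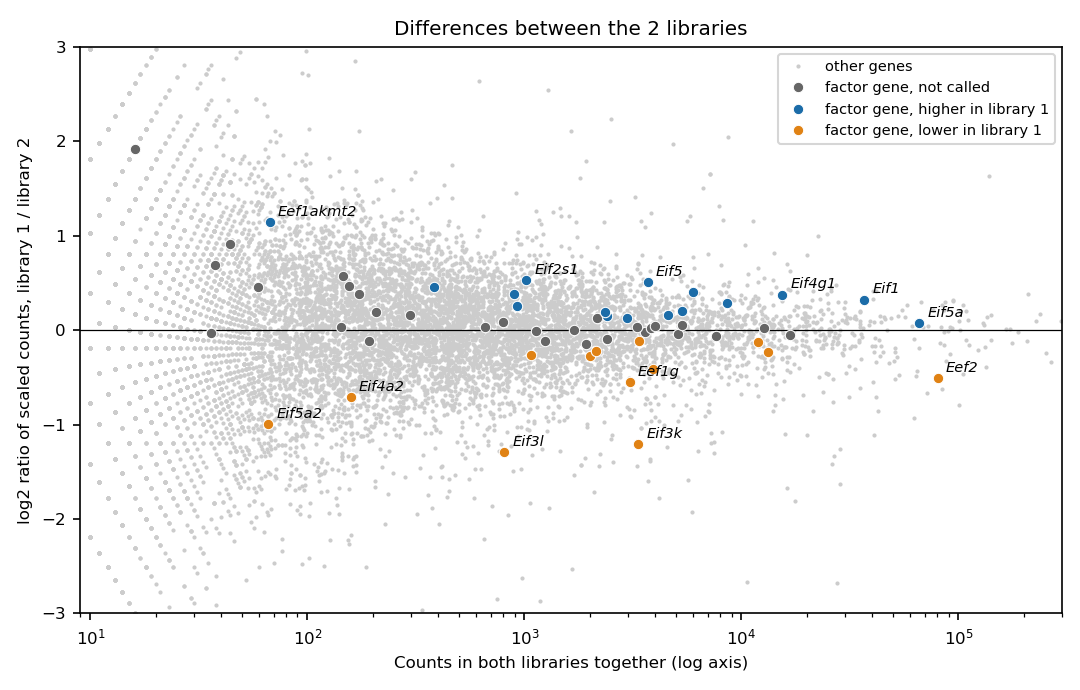
log2 ratio of scaled counts, library 1 over library 2, against the counts of both libraries together (log axis), for factor genes (large points) and other genes (grey); genes that lack a count in library 1 or in library 2, or lie beyond 3 on the vertical axis, are not drawn. Eif3l (-1.29) and Eif3k (-1.21) lie below the band that holds the other factor genes with many counts.

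The start windows printed above were then set beside these ratios. Among factor genes counted at least 100 times in each library, 13 had the run anywhere in a window, and 5 of them were lower and 2 higher in library 1. The 5 were Eef2, Eif2b2, Eif2s3x, Eif3k and Eif3l, and the 2 were Eef1e1 and Eif4g1. Eif2s3x had a ratio of 0.833 (0.737 to 0.941), Eif2b2 0.824 and Eif4g1 1.30. Of 24 such genes without the run 2 were lower and 12 higher. Over all genes with that many counts, 29.4% with the run were lower and 29.2% higher, against 28.7% and 28.5% without it. The median log2 ratio was -0.0072 for factor genes with the run and 0.11 for those without. Eef1a1, with a run of 10 letters at its start, had a ratio of 1.02, and Eif3f, with 15, a ratio of 0.968, and neither was called. No test of the difference between the groups with and without the run was made.

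The wider translation machinery gave the following levels, in lists drawn up beside the factor genes. Of the eIF2 kinases and phosphatase subunits 3 of 6 reached 1 TPM in both libraries: Ppp1r15a, the inducible subunit that directs the phosphatase to eIF2, had 522 TPM in library 1 and 913 TPM in library 2, and the heme-regulated kinase gene Eif2ak1 had 17.2 and 16.9 TPM. The lowest kinase gene by mean TPM was Eif2ak3 at 0.07 TPM in library 1 and 0.33 in library 2. The poly(A) binding protein genes Pabpc4 (701 TPM in library 1 and 834 in library 2) and Pabpc1 (509 TPM in both) stood above every initiation factor gene, and the helicase gene Dhx29 was the lowest of its list by mean at 0.13 and 0.15 TPM.

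In the mTOR list 10 of 13 genes reached 1 TPM, led by Mknk2, a kinase of eIF4E, at 50.1 TPM in library 1 and 59.5 in library 2 and Akt1s1 at 32.8 and 41.9 TPM. The eIF4A inhibitor gene Pdcd4 was lowest by mean at 0.67 TPM in library 1 and 0.43 in library 2. Of the 9 genes that make hypusine and diphthamide, the modified residues of eIF5A and eEF2, 5 reached 1 TPM: Dohh had 35.2 TPM in library 1 and 33.6 TPM in library 2, Dph3 had 3.95 and 10.1 TPM, and Dph6 was lowest by mean at 0.14 and 0.10 TPM. Termination and recycling had 3 of 6 genes at 1 TPM, with Pelo at 7.65 TPM in library 1 and 7.33 in library 2, Gspt1 at 7.12 and 7.84 TPM and Gspt2 at 0.01 and 0.02 TPM. Among 9 mitochondrial translation factors 3 reached it, with Tufm at 1.70 TPM in library 1 and 3.91 in library 2, Tsfm at 1.99 and 2.54 TPM and Mtrf1 at 0. Reinitiation had 1 of 3, with Denr at 4.79 and 6.49 TPM, Mcts2 at 0.30 and 0.22 TPM and Mcts1 at 0.11 TPM in library 1 and 0 in library 2. Both selenocysteine genes, Secisbp2 (2.48 TPM in library 1 and 2.74 in library 2) and Eefsec (1.37 and 1.45 TPM), reached it.

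Some of these values rest on reads that could belong to another gene. In 51 of the 63 genes the expected counts were whole within 0.01 in both libraries, so the quantifier divided few or no reads there, and in 12 they were not. At least 20% of the 31-base words occur in another gene's transcripts in 14 genes. Of Eef1a1 the share is 51.5%, but no listed pseudogene copy received more than 8.49 counts. Exons of 11 genes overlap a protein-coding gene with counts, on the opposite strand in 10, among them Eif1ad (602 counts in library 1 and 530 in library 2) beside Banf1 (2088 and 1402 counts).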

How the data were processed

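The authors deposited a gene table and a transcript table for each library, made on mm10 with GENCODE M4 per the deposited file listing. Aligner, quantifier and use of strand: not given in the sources used here. Per the file headers, the deposited expected counts are estimated read pairs, which need not be whole, and the deposited TPM values are corrected for length. The deposited percent of a gene's TPM in each transcript gave transcript shares. Deposited posterior mean TPM served as an alternative.

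Symbols, positions, GC content and transcript classes came from GENCODE M21 on mm10. Expected counts were rounded for tests. Library sizes were scaled with edgeR 4.0.16 in R 4.3.3 (factors 0.993 and 1.01); edgeR put the biological coefficient of variation at 0.241 (9043 genes). Genes whose counts summed to 10 or more entered the exact binomial test. The test was checked on simulated counts that varied by counting error only, so the check does not cover wider spread between libraries. A count of 0 was read as at most 3 counts; intervals cover counting error only. Alternatives included DESeq2 1.42.0 size factors, total counts, other minima and a correction in 20 GC bins. Python 3.11.15 with numpy 2.4.6, pandas 2.3.3, scipy 1.17.1 and matplotlib 3.10.9 did the rest.

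Members and lists were chosen with earlier results of these data known. The genes named are all members by role, with the 3 highest and the lowest of each role, all copies of a family, the 5 largest ratios in each direction, and the 2 highest and the lowest of each pathway list; others were named after their values were seen.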

Additional observations from a re-analysis of the deposited data

Results flagged for a closer look

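A processed pseudogene outside the 63 genes, Eif4a-ps4, held 16.08 expected counts in library 1 and 21.66 in library 2, above the 3 counts that a count of 0 allows. It shares 25.6% of the 31-base words of Eif4a1, which had 2557 and 2010 counts. Whether the reads arose at the pseudogene was not tested.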

How the results depend on the processing

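The number of factor genes called between the libraries was 29 with DESeq2 size factors, 30 with total counts and 30 with GC correction, of which 28, 27 and 25 were called in the reported test as well. Requiring 2-fold as well left 3 factor genes and 1368 genes in all. Of the genes called in the reported test, 4 had the other direction by TPM, with log2 ratios of 0.39 for Eif2b2, -0.038 for Eif3c, -0.029 for Eif4a1 and -0.083 for Eif5a. With GC correction Eif3a and Eef1a1, not called in the reported test, were called in the other direction at -0.19 and -0.12. Some further ratios that were not called also changed sign, such as that of Eif2s3y, 0.46 as reported and -0.92 by TPM. The order of copies turned in eIF3j with coding transcripts and in the 4E-BPs and eIF4G by counts. By TPM, Eif4g1 was above Eif4g2 in library 1 and below it in library 2. The correlation of level with length over protein-coding genes was -0.076 by posterior mean TPM. The cause was not tested.

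The median level of a factor gene was 43.0 TPM when the globins were left out of the total, 3.13 TPM with coding transcripts alone, and 6.27 to 6.51 TPM when either library was left out. The spread in eIF2B was 11.9-fold with coding transcripts, 43.6-fold by posterior mean TPM and 49.3-fold to 55.5-fold without a library. In eEF1B it was 45.1-fold with coding transcripts, and 7.10-fold to 11.6-fold without a library. In eIF2 it was 1.92-fold to 2.02-fold without a library. The correlation with GC content was 0.372 by posterior mean TPM and 0.362 to 0.366 without a library, and that with length -0.30 to -0.32. The alternatives with coding transcripts and with ratios of TPM were chosen after seeing the data. No paired analysis was possible because the libraries form 1 group. With 2 libraries from the same donor entry, the SDs are rough, and genes with few counts, such as Eif5a2, Eif1a and Eif2s3y, have wide counting intervals.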
